A study of Mus musculus with 8 samples.

Results

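The genes described here are 8 members of the S100 family of small calcium-binding proteins, *S100a8*, *S100a9*, *S100a4*, *S100a6*, *S100a10*, *S100a11*, *S100a1* and *S100a13*, out of 24787 genes in the count tables, in which 15 S100 genes have an entry. The 8 were chosen by name, and the choice was made on treatment differences of their summed counts: *S100a8* and *S100a9* on one side and *S100a4* and *S100a6* on the other were picked for opposite directions already seen in these data. The treatment differences of those 4 genes are therefore given as a description without a test, and tests are kept for the other 4 members, for partner genes and for differences between cell classes. MC38 is a mouse colon carcinoma line grown in C57BL/6 mice, and 8 tumors of 8 mice were dissociated 24 hours after treatment. Of these, 3 mice had received saline, 3 free R848, a small-molecule agonist of the endosomal receptors TLR7 and TLR8, and 2 the medium R848-BPD, a bottlebrush polymer prodrug that releases R848 over time. In vivo work was done in 8-week-old mice per the methods, females for the C57BL/6J strain, and the doses given to these 8 mice are not stated in the labels. Leukocytes (CD45+) were loaded in large excess over CD45- cells onto Seq-Well arrays, which tag each transcript with a unique molecular identifier (UMI), so shares of cell classes follow that loading as well as the tumor.

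S100 proteins are small EF-hand proteins that bind calcium and then dock onto target proteins. *S100a8* and *S100a9* encode the 2 chains of calprotectin, which neutrophils and inflammatory monocytes hold in their cytosol and release, and which acts outside the cell on receptors such as TLR4 and RAGE and withholds zinc and manganese from microbes. *S100a4* binds nonmuscle myosin and is known for cell motility and metastasis, *S100a6* binds the ubiquitin-ligase partner Cacybp and annexins, *S100a10* pairs with annexin A2 at the plasma membrane, and *S100a11* with annexin A1. *S100a13* takes part in the nonclassical export of Fgf1 and interleukin-1α, and *S100a1* is best known in heart muscle, where it binds the ryanodine receptor.

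All 8 members lie on chromosome 3 (GRCm38, GENCODE vM21) within 3054 kb. *S100a4* (90603771 to 90606045, plus strand) and *S100a6* (90612882 to 90624181, plus strand) are 6.84 kb apart. *S100a8* (90668978 to 90670035, plus strand) and *S100a9* (90692632 to 90695721, minus strand) are 22.6 kb apart and face opposite strands. *S100a1* (90511034 to 90514392, minus strand) and *S100a13* (90514435 to 90524581, plus strand) start close to each other, head to head, while *S100a11* (93520488 to 93526287) and *S100a10* (93555080 to 93564643) sit together on the plus strand. Whether counting used the strand is not given in the sources used here. The 250 bases before the RefSeq start (GRCm38.p6; 7 of the 8 members matched) are shown for the calprotectin pair and for the neighbors *S100a4* and *S100a6*, the 4 members whose levels are described most fully. They lie at chr3:90668821-90669070 for *S100a8*, chr3:90695722-90695971 on the minus strand for *S100a9*, chr3:90603520-90603769 for *S100a4* and chr3:90612644-90612893 for *S100a6*. The windows of *S100a8* and *S100a6* run past the earliest GENCODE start of the gene. Each is written 5′ to 3′ on the strand of the gene, with matches in capitals to the letters TATAAA (the TATA box), GAGGAA (PU.1) and TTGCNNAA (C/EBP), searched on both strands, so that GAGGAA on the other strand reads TTCCTC.
S100a8: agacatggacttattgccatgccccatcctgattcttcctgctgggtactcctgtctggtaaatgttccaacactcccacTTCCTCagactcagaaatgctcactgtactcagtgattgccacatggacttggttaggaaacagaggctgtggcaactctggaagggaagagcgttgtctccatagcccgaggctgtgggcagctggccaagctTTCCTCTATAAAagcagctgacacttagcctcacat
S100a9: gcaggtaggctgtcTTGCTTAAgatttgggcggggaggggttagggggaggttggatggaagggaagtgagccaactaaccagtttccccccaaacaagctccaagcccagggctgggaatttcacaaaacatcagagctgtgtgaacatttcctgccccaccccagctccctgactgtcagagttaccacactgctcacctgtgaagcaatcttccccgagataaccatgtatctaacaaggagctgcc
S100a4: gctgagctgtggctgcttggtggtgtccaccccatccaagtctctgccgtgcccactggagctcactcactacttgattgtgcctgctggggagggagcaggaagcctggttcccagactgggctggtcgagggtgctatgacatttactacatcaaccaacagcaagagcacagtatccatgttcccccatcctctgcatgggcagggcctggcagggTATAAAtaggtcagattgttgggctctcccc
S100a6: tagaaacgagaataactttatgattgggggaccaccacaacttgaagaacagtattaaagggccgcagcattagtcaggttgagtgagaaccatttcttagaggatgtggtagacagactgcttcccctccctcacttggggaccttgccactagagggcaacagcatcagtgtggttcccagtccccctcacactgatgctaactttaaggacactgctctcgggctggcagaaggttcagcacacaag
The *S100a8* window held 1 TATAAA and 2 GAGGAA matches, one of which adjoins TATAAA, and that of *S100a9* 1 TTGCNNAA match. That of *S100a4* held 1 TATAAA, and none of these letters was in that of *S100a6*. Of 6 motifs searched, the AP-1 type (TGANTCA) and the STAT type had no match in these 4 windows. The NF-κB type had 3 matches in *S100a4*, 2 of which overlap,, 1 in *S100a6* and none in *S100a8* or *S100a9*. Among 27025 mouse promoter windows of this length, 13% held TATAAA, 23.1% GAGGAA, 9.55% TTGCNNAA, 6.87% the AP-1 type, 7.18% the STAT type and 45.4% the NF-κB type. A match of letters is not a binding site.

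Cells were placed in classes by marker genes that include no S100 gene, and the classes carry the ending -like. Of 9886 cells kept, 1386 were monocyte-like and 4045 macrophage-like (together monocyte/macrophage-like), 1551 MC38-like, 142 neutrophil-like, 938 NK-like, 551 T-like, 464 DC-like, 80 fibroblast-like and 164 osteoclast-like, and 552 (5.58%) received no class. Neutrophil-like cells held 449.8 UMIs (CPM, per 1000000 UMIs of the class) of *Cxcr2* and 309.2 of *Retnlg*, against 0.972 and 1.30 in monocyte-like cells. MC38-like cells held *Mtap* (755.7) and *Rhox5* (857.5), while their epithelial keratin genes *Krt8* (0.0906) and *Krt18* (0.272) were near 0. Tumors held 5867590 to 12422614 UMIs, the median depth of a cell ranged from 3247 to 6928 UMIs, and 23 barcodes occurred in more than 1 tumor. Saline replicate 2 stood apart: monocyte-like cells were 5.36% of its monocyte/macrophage-like cells, against 44.9% and 45.3% in the other saline tumors, 22.4% to 35.8% after free R848 and 11.7% and 11.9% after medium R848-BPD. In such sums over a tumor, fewer cells of a kind and less RNA per cell cannot be told apart. Nothing beyond the mouse in the labels separates replicates, and no label gives a sequencing batch.

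Each member had its own order of the 7 classes compared. The mean over tumors of log2(CPM + 10) was highest in neutrophil-like cells for *S100a8* (12.10) and *S100a9* (12.43), in monocyte-like cells for *S100a4* (8.94), in MC38-like cells for *S100a6* (9.61) and *S100a1* (5.64), in T-like cells for *S100a10* (9.48), in DC-like cells for *S100a11* (8.06) and in NK-like cells for *S100a13* (7.05). Osteoclast-like cells, which could be summed in only 3 tumors and are not in this order, stood higher still for *S100a4* (11.11), *S100a10* (9.90) and *S100a1* (6.38). Fibroblast-like cells, likewise summed in 3 tumors, also stood above MC38-like cells for *S100a1* (5.998). With classes from clusters in place of the marker gate, the highest class was again the same for every member but *S100a10*, whose highest class was then monocyte-like. Values are not corrected for transcript length or capture and are to be read along a gene, not between genes.

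**Figure D1:**
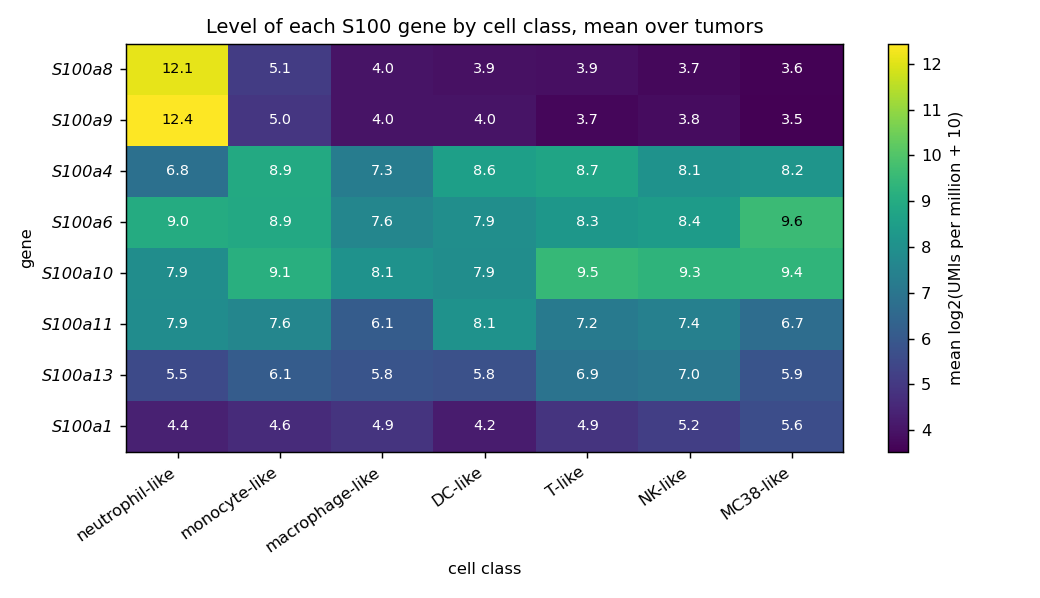
Mean over tumors of log2(CPM + 10) for the 8 S100 genes (vertical axis) in 7 cell classes (horizontal axis), with color and printed number giving the same value. *S100a8* and *S100a9* stand at 12.10 and 12.43 in neutrophil-like cells and between 3.5 and 5.1 elsewhere, while the other members differ less between classes.

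Within the 5 tumors that had enough neutrophil-like cells, *S100a8* was 6.36 ± 1.00 (SD of the log2 difference, n = 5) and *S100a9* 7.05 ± 0.94 log2 units above monocyte-like cells, in 5 of 5 tumors. *S100a10* was above macrophage-like cells in monocyte-like cells by 1.07 ± 0.42 (SD, n = 8) in 8 of 8 tumors, and *S100a11* was above MC38-like cells in T-like cells by 0.45 ± 0.26 in 8 of 8 (exact two-sided permutation p = 0.00781 for each, adjusted p = 0.107). *S100a4* in monocyte-like cells exceeded T-like cells by only 0.20 ± 0.61, and these neighbors were not separated. No one of 48 pairs of neighboring classes passed after Benjamini-Hochberg adjustment over all pairs, and 10 had an unadjusted p under 0.05. The smallest possible exact p is 0.00781 with 8 tumors and 0.0625 with 5. The 2 calprotectin genes had nearly one pattern over 53 sums of a class in a tumor (Pearson r = 0.982, a description over sums that share tumors).

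After medium R848-BPD, monocyte/macrophage-like cells held little *S100a4* and *S100a6* and more *S100a8* than after free R848. *S100a4* stood at 292, 288 and 398 CPM (here after TMM scaling of the sums of a class) in the tumors given free R848, at 37.5 and 29.4 in those given medium R848-BPD, and at 667, 157 and 764 after saline. Both prodrug tumors lay below all other tumors, and saline replicate 2 was the lowest of the rest. The fitted log2 fold change of medium R848-BPD over free R848 was -3.29 ± 0.62 (SE), 9.78-fold lower, and over saline -3.99 ± 0.64, 15.8-fold lower (-4.42 without saline replicate 2).

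*S100a6*, which lies next to *S100a4* on the chromosome, stood at 316, 268 and 408 CPM after free R848, at 98.1 and 120 after medium R848-BPD, and at 422, 164 and 384 after saline. Again both prodrug tumors were the lowest of the 8. The log2 fold change was -1.61 ± 0.39 (SE) against free R848, 3.06-fold lower, and -1.57 ± 0.39 against saline (-1.90 without saline replicate 2).

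*S100a8* had the opposite order, with 9.67, 4.34 and 14.1 CPM after free R848, 27.8 and 38.9 after medium R848-BPD, and 6.14, 0 and 3.67 after saline. Both prodrug tumors were above every other tumor. The log2 fold change was 1.86 ± 0.77 (SE) against free R848, 3.63-fold higher, and 3.50 ± 0.85 against saline, 11.3-fold higher (2.67 without saline replicate 2, in which no UMI was found, and 4.79 without saline replicate 1).

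*S100a9*, the partner chain of *S100a8*, overlapped between the forms of R848. It stood at 11.9, 8.68 and 34.0 CPM after free R848, at 8.82 and 23.7 after medium R848-BPD, and at 6.14, 0.99 and 6.61 after saline, so that free R848 and prodrug tumors overlapped while both stood above saline. The log2 fold change was -0.18 ± 0.76 (SE) between medium R848-BPD and free R848, 1.92 ± 0.83 against saline, and 2.09 ± 0.76 for free R848 against saline (1.25 and 1.43 without saline replicate 2). Between the 2 forms of R848 the direction of *S100a9* was not settled. Its log2 fold change was above 0 in the 3 of 3 separate classes that could be fitted (0.39 to 0.47), each with overlapping tumors. In classes with too few UMIs for a fit, prodrug tumors were above all free R848 tumors in T-like and MC38-like cells. They overlapped in DC-like and NK-like cells. Against saline the direction of *S100a9* was opposite to that of *S100a4*, in a contrast that rests on the same saline tumors for both genes. Between medium R848-BPD and free R848, 1 member (*S100a8*) was higher and 3 (*S100a4*, *S100a6* and *S100a13*) were lower with no overlap of tumors, where 18.2% and 16.7% of all genes tested in these cells were higher and lower in this way. The median log2 fold change of the 8 members was -0.24, and that of all 10797 genes tested -0.01.

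**Figure D2:**
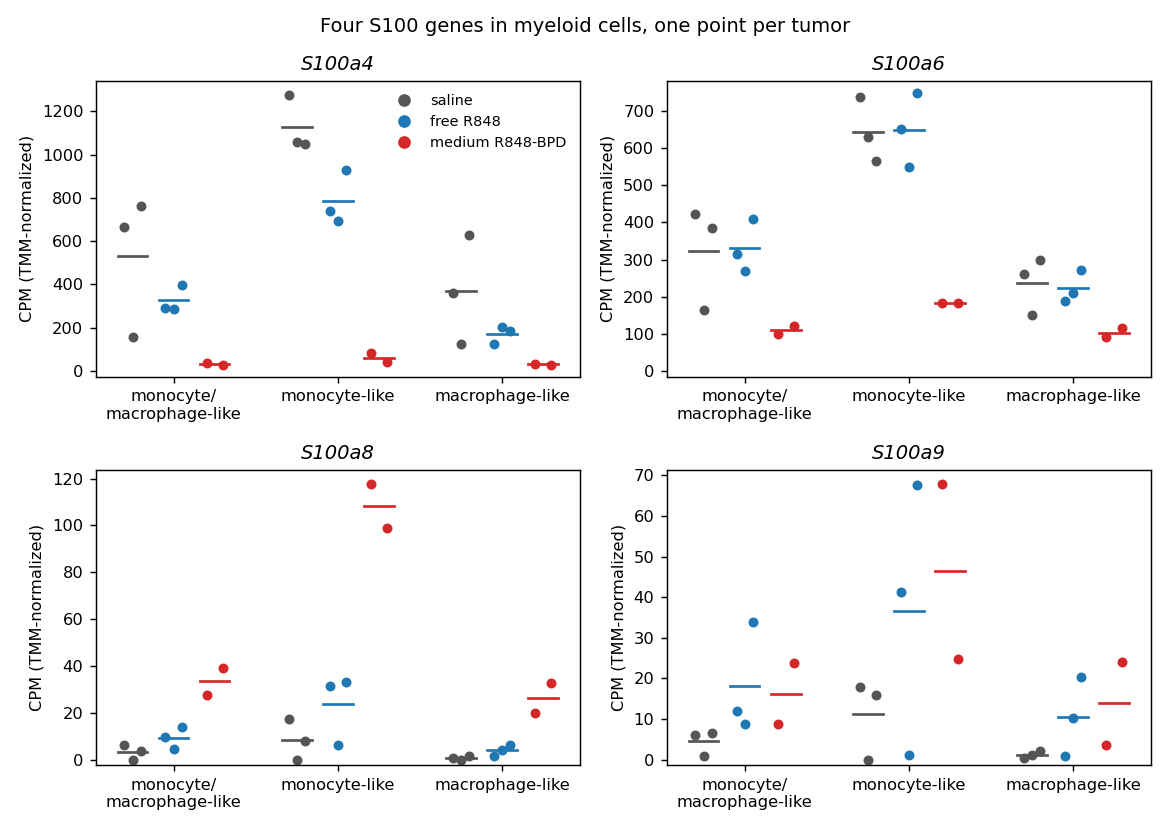
TMM-normalized CPM (vertical axis, linear) of *S100a4*, *S100a6*, *S100a8* and *S100a9* in monocyte/macrophage-like cells and their monocyte-like and macrophage-like parts, with 1 point per tumor, color for treatment and a line at the group mean. Prodrug tumors lie below all others for *S100a4* and *S100a6* and above all others for *S100a8*, whereas for *S100a9* they overlap with free R848.

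The markers of monocytes moved with *S100a4* in these sums. The summed level of the 5 monocyte markers was 3343, 2638 and 3659 CPM after free R848, 998 and 1180 after medium R848-BPD, and 3319, 754 and 2896 after saline, and none of the 5 was at 0 in any tumor. The tumor with the lowest *S100a4* outside the prodrug group, saline replicate 2, was thus also the one with the lowest marker sum. Within monocyte-like cells, however, *S100a4* was 1059 CPM in saline replicate 2, between 1278 and 1049 in the other saline tumors, and 81.6 and 42.3 CPM after medium R848-BPD. The markers *Ly6c2* and *Ccr2* of these cells were also lower after medium R848-BPD, *Ly6c2* at 1614 and 1237 CPM against 3410 to 3621 after free R848, and *Ccr2* at 431 and 388 against 726 to 890. Their part in the result was not tested.

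In monocyte-like cells alone the same order held. *S100a4* stood at 738, 692 and 927 CPM after free R848 (-3.56 ± 0.26, SE, for medium R848-BPD on the log2 scale). *S100a6* stood at 652, 549 and 748 CPM after free R848, 184 and 183 after medium R848-BPD, and 739, 630 and 565 after saline (-1.78 ± 0.21 against free R848). For *S100a8* the values were 31.3, 6.18 and 33.2 CPM, 118 and 98.7, and 17.3, 0 and 7.94 in the same order (2.22 ± 0.48, 4.66-fold higher). The prodrug tumors were apart from all others for each of these 3 genes. *S100a9* varied from 1.24 to 67.7 CPM after free R848 and was 68.0 and 24.7 after medium R848-BPD, overlapping (0.47 ± 0.76). In all, 1 member was higher and 4 (*S100a4*, *S100a6*, *S100a10* and *S100a13*) were lower with no overlap, beside 15.5% and 21.1% of all genes.

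In macrophage-like cells the order was the same for these 3 genes. *S100a4* stood at 124, 202 and 184 CPM after free R848, 33.9 and 28.5 after medium R848-BPD and 361, 125 and 628 after saline (-2.44 ± 0.60 against free R848), with the prodrug tumors lowest. *S100a6* was 189 to 271 CPM after free R848 and 91.5 and 116 after medium R848-BPD (-1.12 ± 0.30). *S100a8* was 1.54, 3.97 and 6.42 CPM after free R848, 19.99 and 32.5 after medium R848-BPD and 0.67, 0 and 1.63 after saline, and the prodrug tumors were highest (2.79 ± 0.59, 6.90-fold higher). *S100a9*, at 0.92 to 20.3 CPM after free R848 and 3.64 and 24.2 after medium R848-BPD, overlapped (0.39 ± 0.96). Here 1 member was higher and 2 were lower with no overlap, beside 19.3% and 15.9% of all genes.

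*S100a4* and *S100a6* were not lower in monocytes and macrophages alone. Between medium R848-BPD and free R848, both had a log2 fold change below 0 in 7 of 7 separate classes, with no overlap between tumors in 6 of them. In T-like cells *S100a4* stood at 1056, 481 and 736 CPM after free R848 and 169 and 28.3 after medium R848-BPD (-2.71 ± 0.47, SE). NK-like cells held 450, 240 and 317 against 128 and 47.6 CPM (-1.75 ± 0.31), and MC38-like cells 352, 446 and 323 against 207 and 92.1 (-1.35 ± 0.27). In each of these classes both prodrug tumors lay below all free R848 tumors, and replicate 2 was the lower of the pair. In DC-like cells, at 215, 655 and 929 against 332 and 132 CPM, the tumors overlapped (-1.34 ± 0.62), and saline replicate 2, with 10 DC-like cells, was at 74.7. *S100a6* had smaller differences, from -0.29 ± 0.23 in NK-like cells, where tumors overlapped, to -1.23 ± 0.36 in T-like cells. In MC38-like cells, the class richest in it, *S100a6* was 871, 818 and 1032 CPM after free R848 and 568 and 490 after medium R848-BPD (-0.79 ± 0.16).

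Of the 5 members that passed the filter on low counts in DC-like cells, 2 were lower with no overlap (12% of all genes). The figures were 2 of 5 in T-like (11.3%), 1 of 6 in NK-like (14.6%) and 4 of 7 in MC38-like cells (14.8%). Of the members that passed, 0 were higher in this way, beside 15.9%, 12.5%, 13.2% and 15.5% of all genes. Members below the filter were not counted, and some were higher with no overlap. These were *S100a8* in NK-like cells (4.51 and 22.4 against 1.20 to 3.33 CPM) and *S100a1* in T-like cells. *S100a9* was so in T-like (9.22 and 11.3 against 0 to 3.57 CPM) and MC38-like cells. Of the 6 that passed in neutrophil-like cells, 3 were lower (9.61%) and 1, *S100a10*, was higher (11.9%). *S100a1*, below the filter there with 9 UMIs, was also higher (24.1 and 15.3 against 0, 11.9 and 10.4 CPM). Free R848 tumors differed less from saline, since *S100a4* was below saline in 5 of 6 classes but without overlap in 1. *S100a4* in MC38-like cells was 313% and 553% of the level of monocyte/macrophage-like cells in the prodrug tumors, against 81.1% to 155% after free R848 and 35.7% to 223% after saline. For *Il1b*, a gene of the myeloid cells, that figure was 1.33% to 7.53% in all 8 tumors. *Il1b* is 1 chosen gene, and the source of *S100a4* in MC38-like cells was not tested.

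**Figure D3:**
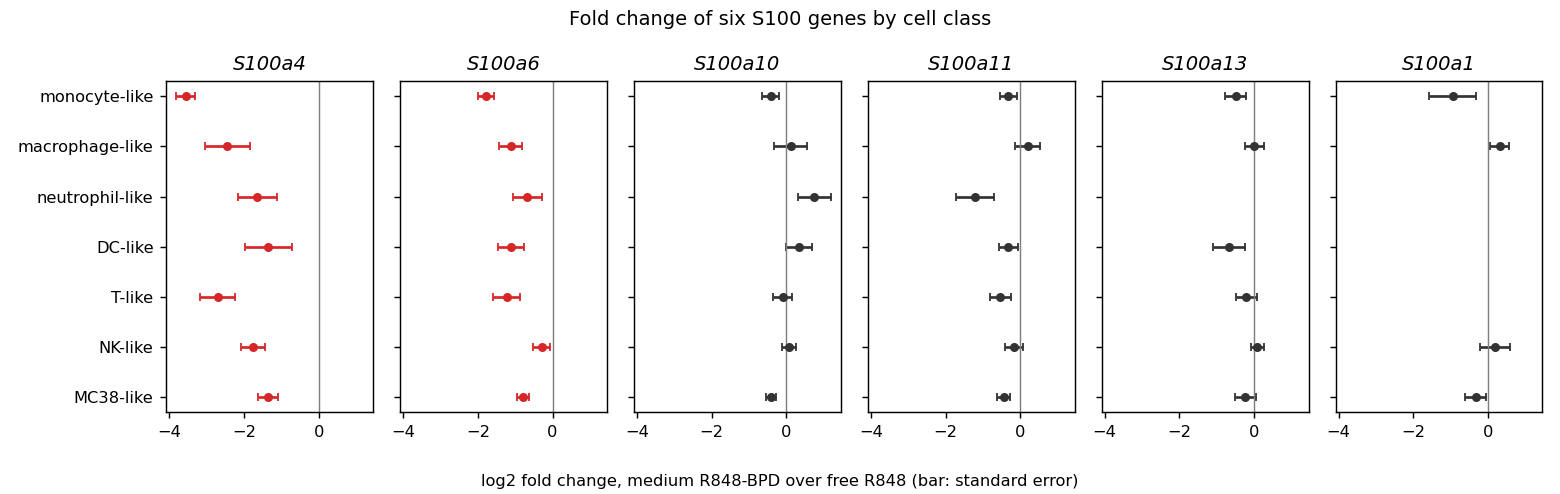
Log2 fold change of medium R848-BPD over free R848 (horizontal axis, bars are standard errors) in 7 cell classes for *S100a4* and *S100a6* (red) and 4 other members (gray), where a class without a point did not pass the filter on low counts. All points of *S100a4* and *S100a6* lie below 0, from -3.56 to -1.34 and from -1.78 to -0.29, while those of the other 4 lie on both sides.

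In neutrophil-like cells, where calprotectin genes are among the most abundant transcripts, the tumors given the 2 forms of R848 overlapped for both. *S100a8* stood at 2175, 3092 and 7344 CPM after free R848 and at 7196 and 4460 after medium R848-BPD (0.50 ± 0.46, SE), and *S100a9* at 2996, 3865 and 9472 against 8508 and 5487 (0.39 ± 0.45). Free R848 replicate 3 was the highest for both, and the groups overlapped. No saline tumor had the 10 neutrophil-like cells needed for a sum. *S100a4* in these cells was 140, 214 and 146 CPM against 32.2 and 71.2 (-1.64 ± 0.52), and *S100a6* 550, 595 and 657 against 467 and 310 (-0.67 ± 0.40), both with no overlap. Most cells held both calprotectin transcripts, namely 10 of 16 after saline, 56 of 66 after free R848 and 54 of 60 after medium R848-BPD.

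**Figure D4:**
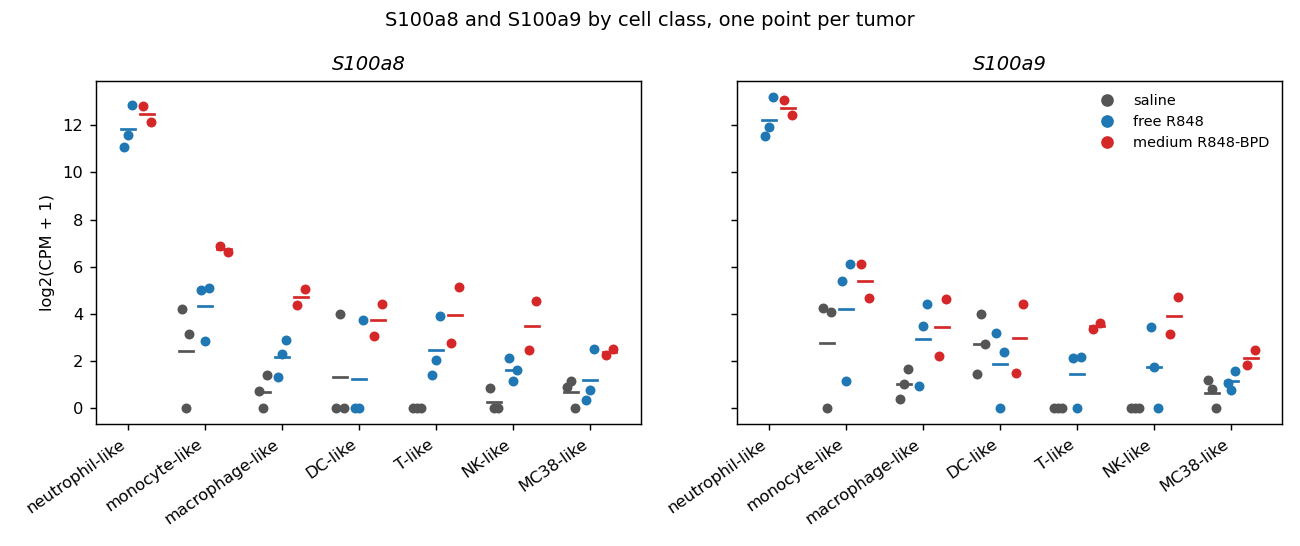
Log2(CPM + 1) of *S100a8* and *S100a9* (vertical axis) in 7 classes, with 1 point per tumor, color for treatment and a line at the group mean of the plotted values. Neutrophil-like cells lie far above the others for both genes, and among monocyte-like and macrophage-like cells the prodrug tumors are highest for *S100a8* only.

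Over whole tumors given R848, most *S100a8* UMIs lay in neutrophil-like cells. The gene made up 29.8, 30.04 and 143 CPM (unscaled, over all cells) after free R848, 91.6 and 110 after medium R848-BPD and 4.74, 0.654 and 11.6 after saline. Neutrophil-like cells carried 83.8%, 90.6% and 87.8% of these UMIs after free R848 and 82.2% and 84.5% after medium R848-BPD, and 25% to 62.7% after saline. They were 1.37% to 3.70% of cells after free R848, 1.54% and 3.19% after medium R848-BPD and 0.139% to 0.713% after saline. Free RNA from such cells can reach other wells, so the level in classes that should lack the gene was set beside that of the myeloid cells. After medium R848-BPD, *S100a8* was 27.3 and 37.8 CPM (unscaled) in monocyte/macrophage-like and 119 and 105 in monocyte-like cells, but 3.87 and 4.502 in MC38-like cells. The order of treatments was the same in the classes that should lack the gene. The mean level after saline, free R848 and medium R848-BPD in CPM was 0.706, 1.88 and 4.19 in MC38-like, 0.266, 2.18 and 14.03 in NK-like and 0, 6.48 and 19.7 in T-like cells, beside 0.779, 3.96 and 24.9 in macrophage-like and 7.90, 23.5 and 112 in monocyte-like cells. Prodrug and free R848 tumors overlapped in T-like and MC38-like cells but not in NK-like cells. A higher mean of *S100a8* after medium R848-BPD was thus not limited to myeloid cells, and the part of free RNA in it was not tested. In replicate 2 the level of T-like cells, at 33.6 from 6 UMIs in 32 cells, was above the 30.4 of macrophage-like cells, and that of NK-like cells was 23.6 from 8 UMIs in 55 cells. In replicate 1 T-like cells were at 5.76 and NK-like cells at 4.45, against 19.4 in macrophage-like cells. Macrophage-like cells were thus above MC38-like and NK-like cells in both tumors but above T-like cells only in replicate 1, while monocyte-like cells were above all 3 in both.

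The ratio of the 2 calprotectin genes is given as a description, since these genes chose the set. *S100a8* was 45.8% (exact 95% binomial interval 43.6 to 48.1) and 44.8% (42.6 to 47.1) of the *S100a8* and *S100a9* UMIs of neutrophil-like cells in the prodrug tumors. In monocyte/macrophage-like cells from the same tumors it was 75.9% (69.3 to 81.6) and 62.2% (54.3 to 69.6). Pooled over the free R848 tumors it was 35.5% (29.9 to 41.4) in monocyte/macrophage-like and 43.5% (41.6 to 45.4) in neutrophil-like cells. Pooled over saline tumors it was 41.6% (31.2 to 52.5) in the former. By tumor, monocyte/macrophage-like cells stood at 44.8%, 33.3% and 29.4% after free R848. After saline they stood at 50%, 0% (0 of 7 UMIs) and 35.7%. The 2 prodrug tumors differed within macrophage-like cells, at 84.6% (76.8 to 90.6) in replicate 1 and 57.4% (48.4 to 66.0) in replicate 2. In MC38-like cells of replicate 2 it was 51.2% (35.5 to 66.7), an interval that overlaps that of macrophage-like cells of the same tumor. These intervals cover counting error only.

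**Figure D5:**
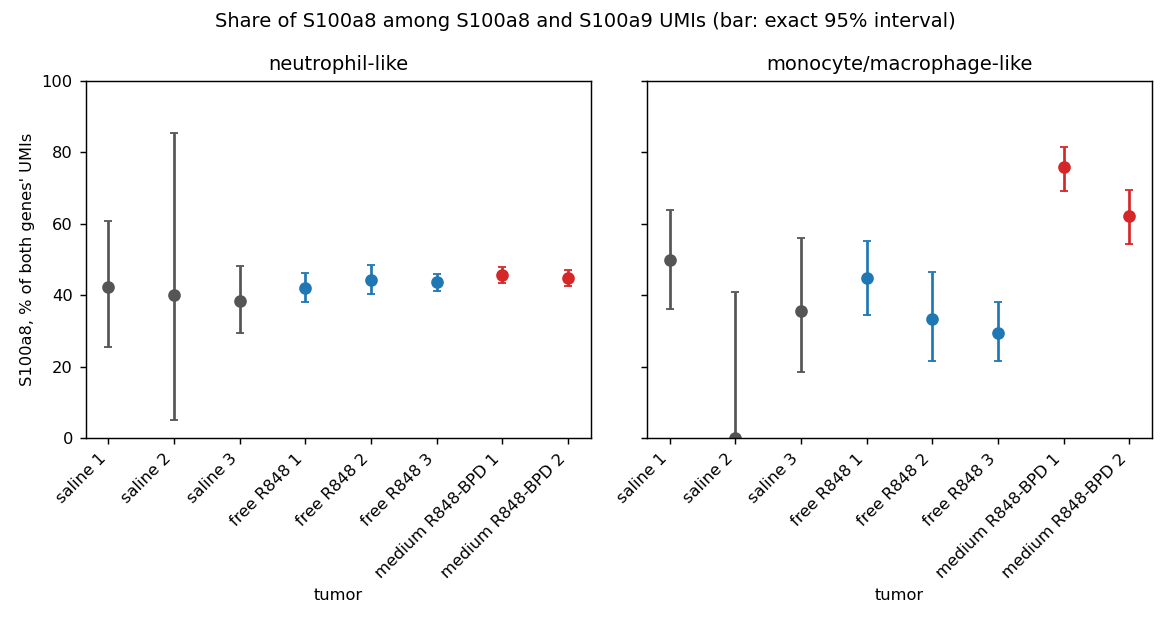
Percent of *S100a8* among the UMIs of *S100a8* and *S100a9* (vertical axis) in each tumor, in neutrophil-like and monocyte/macrophage-like cells, with exact 95% binomial intervals. Neutrophil-like cells stay near 45% in the treated tumors, and monocyte/macrophage-like cells after the prodrug stand at 75.9% and 62.2%.

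Neutrophil genes differed among themselves in monocyte/macrophage-like cells. The summed level of the 6 neutrophil genes was 150, 111 and 226 CPM after free R848, 90.1 and 84.0 after medium R848-BPD and 280, 114 and 288 after saline. After free R848 and saline, most of that sum came from *Il1r2*, the decoy receptor gene of interleukin-1. In the pooled prodrug tumors *Il1r2* had 291 UMIs, fewer than the 339 of *Csf3r*. *Retnlg* and *Cxcr2* had an order of treatments opposite to that of the sum in counts pooled by treatment. *Retnlg* had 15 UMIs after medium R848-BPD, 14 of which were in replicate 1, against 7 for free R848 and 0 for saline, and *Cxcr2* had 7, 4 and 2. *Csf3r*, the receptor gene for the granulocyte growth factor, was 45.2 and 35.5 CPM after medium R848-BPD, 42.5, 27.8 and 37.0 after free R848 and 22.7, 26.9 and 24.6 after saline, so that prodrug and free R848 tumors overlapped. Their part in the *S100a8* result was not tested. All 6 were detected in both prodrug tumors, and 0 to 3 of them were at 0 in the other tumors. Without the cells holding *Retnlg*, *Cxcr2* or *Hdc*, an alternative chosen after seeing the data, the log2 fold change of *S100a8* between medium R848-BPD and free R848 was 2.28, and that of *S100a9* 0.80.

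Shares of positive cells were compared at 1 depth. After thinning each cell to 1000 UMIs, *S100a8* was held by 2.94% ± 0.186 (SD, n = 2) of monocyte/macrophage-like cells in tumors given medium R848-BPD, 0.660% ± 0.431 (SD, n = 3) after free R848 and 0.235% ± 0.227 after saline, while without thinning these shares were 10.6%, 2.09% and 0.581%. In MC38-like cells, which should lack it, the thinned share after medium R848-BPD was 0.616%. Of the T-like cells of the prodrug tumors, which should lack it too, 6.67% held a UMI without thinning. Monocyte-like cells reached 8.05% after medium R848-BPD against 1.51% and 0.417% after free R848 and saline, and neutrophil-like cells 87.4% against 77.1% after free R848. For *S100a9*, 0.882% of the myeloid cells were positive after medium R848-BPD, which was not above the 2.36% of T-like cells, a class that should lack the gene.

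*S100a4* was found in 3.19% of these myeloid cells after medium R848-BPD, 22.9% after free R848 and 33.0% after saline, and in monocyte-like cells in 4.58%, 46.2% and 60.4%. Its share in T-like cells was 6.76%, 41.1% and 37.7%, and in MC38-like cells 12.01%, 24.7% and 26.2%. *S100a6* was found in 13.9% of monocyte-like cells after medium R848-BPD against 42.8% and 42.7%. In all of these classes, fewer cells were positive in the prodrug tumors. Thinning left out 21, 4 and 3 monocyte-like cells after saline, free R848 and medium R848-BPD.

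The annexin partners *S100a10* and *S100a11*, with *S100a1* and *S100a13*, could be tested. In 80 tests over 8 classes (the 2 myeloid parts and their union among them), 1 was called with edgeR's quasi-likelihood test at an adjusted p of 0.05 over all genes, 15 had an unadjusted p under 0.05, and DESeq2 called 2. With 1 tumor left out, 0 to 3 were called. The share of all genes with an unadjusted p under 0.05 is not given, so nothing is read from the 15. The call was *S100a11* in DC-like cells, which fell after medium R848-BPD against saline. It stood at 188 and 173 CPM after medium R848-BPD and at 202, 239 and 225 after free R848. Saline tumors lay above all others, at 315, 389 and 423, and saline replicate 2 had only 10 DC-like cells. The log2 fold change against saline was -1.10 ± 0.26 (SE, adjusted p = 0.0157), in a contrast in which 9.87% of all genes of DC-like cells were called. The call was lost without medium R848-BPD replicate 1 (adjusted p = 0.153) or 2 (0.129), without saline replicate 3 (0.0641), with the replicate number as a block (0.0690) and with cells thinned to 1000 UMIs (0.442). Free R848 against saline gave -0.78 (adjusted p = 0.139) for the same gene, with 0.558% of genes called, and medium R848-BPD against free R848 no call of any member, with 0.279%.

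In monocyte/macrophage-like cells, 0 of the 12 tests were called. *S100a10* stood at 245, 286 and 426 CPM after free R848, 206 and 320 after medium R848-BPD and 487, 167 and 567 after saline, and all groups overlapped. Its log2 fold change between medium R848-BPD and free R848 was -0.28, with an interval of 2 SE from -1.24 to 0.67 (adjusted p = 0.853). *S100a11*, at 87.4, 69.0 and 103 against 55.7 and 78.7 CPM, gave -0.38 (-1.21 to 0.45, adjusted p = 0.753). *S100a13* was 44.96, 57.7 and 47.0 against 44.5 and 43.9 CPM (-0.19, -0.54 to 0.16, adjusted p = 0.695), and *S100a1* 18.4, 12.8 and 13.4 against 18.0 and 15.3 (0.15, -0.32 to 0.62, adjusted p = 0.839). Of all genes, 1.42% were called between medium R848-BPD and free R848, 6.18% against saline and 0.0185% between free R848 and saline. In the last contrast *S100a1* was lower in every free R848 tumor than in the saline tumors (19.3, 27.9 and 27.2 CPM), with -0.72 ± 0.21 and an adjusted p of 0.305.

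Outside DC-like cells, no call was made among these 4 members. Monocyte-like cells came nearest, with -0.70 ± 0.23 for *S100a10* (385 and 437 CPM against 751, 550 and 719) and -0.68 for *S100a11* between medium R848-BPD and saline, at adjusted p = 0.0801 and 0.106. The shares of all genes called in these cells were 3.46% between the forms of R848, 7.64% for the prodrug against saline and 0.447% for free R848 against saline. In macrophage-like cells they were 1.51%, 9.53% and 0%, and *S100a1* reached -0.90 ± 0.22 (adjusted p = 0.179) between free R848 and saline. In MC38-like cells (0.318%, 1.22% and 0%), *S100a10* was 619 and 461 CPM after medium R848-BPD against 692, 675 and 767 after free R848 (-0.41, adjusted p = 0.221) and *S100a11* gave -0.44 (0.276).

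T-like (0.0755%, 0.0453% and 0.0604% of genes called) and NK-like cells (0.0832%, 0.451% and 0%) had few calls among all genes. In T-like cells *S100a11* gave -0.82 against saline (adjusted p = 0.496), and in NK-like cells, the class with the most *S100a13*, that gene varied from 105 to 137 CPM over all 8 tumors. In neutrophil-like cells, with 0.661% of genes called, *S100a10* was 362 and 290 CPM after medium R848-BPD against 201, 238 and 115 (0.75 ± 0.45, adjusted p = 0.802) and *S100a11* 177 and 117 against 201, 214 and 615 (-1.22 ± 0.51, adjusted p = 0.578). The response of the 4 members to medium R848-BPD over free R848 was also compared between MC38-like and monocyte/macrophage-like cells with a class-by-treatment term. None of 4 was called or had an unadjusted p under 0.05, with differences from -0.45 ± 0.36 (*S100a1*, adjusted p = 0.715) to -0.07 (*S100a11* and *S100a13*, adjusted p = 0.977 and 0.961), where 0.449% of all genes were called.

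Of 44 listed receptors, binding partners and regulators, 38 were tested in monocyte/macrophage-like cells. Between medium R848-BPD and free R848, 0 were called, with 9 at an unadjusted p under 0.05 and 1 call by DESeq2. Between free R848 and saline 0 were called, with 4 at an unadjusted p under 0.05. The shares of all genes at that unadjusted limit are not given, so nothing is read from the 9 and the 4. The median log2 fold change of the list was -0.02 between medium R848-BPD and free R848, and -0.01 over all genes. Against saline, 1 of the 7 receptors tested rose and 1 of the 13 cytoplasmic partners fell after medium R848-BPD, and none of the 9 annexins and membrane partners or of the 9 regulators passed. These 2 of 38 compare with 6.18% of all genes called in this contrast, and nothing particular to the list is read from them. *Cd36*, a fatty acid and lipoprotein receptor that binds S100a8/S100a9 with arachidonic acid, was 167 and 337 CPM against 87.8, 39.5 and 103 after saline (1.73 ± 0.40, adjusted p = 0.0384). *Trp53*, the tumor suppressor bound by S100a4, was 33.8 and 36.7 CPM against 55.3, 70.0 and 52.9 (-0.76 ± 0.15, adjusted p = 0.0230). Prodrug and saline tumors did not overlap for either, but neither call held throughout. That of *Cd36* was lost without any 1 of the free R848 tumors, without medium R848-BPD replicate 2 or without saline replicate 1 (adjusted p from 0.0668 to 0.306 in edgeR), and that of *Trp53* without either prodrug tumor or without saline replicate 1 (0.0545 to 0.120). Without saline replicate 2, the listed genes called were 5, 9 and 2 in the contrasts of medium R848-BPD against free R848, of medium R848-BPD against saline and of free R848 against saline.

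The receptor *Tlr4* did not pass between the forms of R848 (66.3, 62.3 and 68.3 CPM after free R848, 59.7 and 85.9 after medium R848-BPD, 0.13 ± 0.20, adjusted p = 0.830). *Ager*, which encodes RAGE, was at most 1.74 CPM and failed the filter on low counts. *Anxa2*, the partner of S100a10, was 626, 599 and 761 against 558 and 545 CPM (-0.28, adjusted p = 0.837). *Anxa1*, the partner of S100a11, was 205, 251 and 241 CPM after free R848, 182 and 118 after medium R848-BPD, and 260, 132 and 394 after saline, with no call in these cells.

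Split into its parts, the myeloid class gave more calls from the list, named here after their values were seen. In monocyte-like cells 4 of 36 tested genes were called between medium R848-BPD and free R848, where 3.46% of all genes were. An unadjusted p under 0.05 was found for 15. Nothing is read from the 15, as the share of all genes at that limit is not given. *Hif1a*, the hypoxia regulator that acts on *S100a8* and *S100a9*, rose by 0.97 ± 0.20 on the log2 scale (465 and 518 CPM against 280, 220 and 277, adjusted p = 0.0137 in edgeR). *Emb*, which encodes embigin, a receptor of S100a8/S100a9, rose by 1.02 ± 0.23 (422 and 448 CPM against 252, 182 and 228, adjusted p = 0.0218). *Csf3*, the granulocyte growth factor gene, was 13.6 and 31.7 CPM against 0.824, 0 and 0, from 15 UMIs against 1, with 6 after saline. It passed the filter on low counts through the tumors in which it was high, so that its call is given no weight, and 3 calls are left without it. *Ahnak*, a scaffold bound by S100a10 and annexin A2, fell by 0.81 on the log2 scale (644 and 715 CPM against 1110.3 to 1470.1, adjusted p = 0.0317).

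Against saline, where 7.64% of all genes were called, 7 of the same 36 listed genes were called in monocyte-like cells, other than *Csf3*. Of these, 1 was higher (*Cd36*) and 6 lower (*Ahnak*, *Alcam*, *Anxa1*, *Anxa3*, *Cd69* and *Il1b*). Among them were *Anxa1* at -0.82 ± 0.20 (adjusted p = 0.0193 in edgeR) and *Ahnak* at -1.45 ± 0.20. These genes too were named after their values were seen. In macrophage-like cells *Hif1a* (0.78 ± 0.15, adjusted p = 0.0384) and *Anxa6* (0.99 ± 0.19, adjusted p = 0.0435), a membrane-binding annexin, rose between medium R848-BPD and free R848, the only 2 calls of 36 tested in this contrast, where 1.51% of all genes were called. In DC-like cells 4 of 27 tested were called against saline, where 9.87% of all genes were, and nothing particular to the list is read from them. There *Il6* rose by 3.06 on the log2 scale (adjusted p = 0.00111), while *Cd36*, *Anxa6* and *Il1b* fell.

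The rest of the family was sparse. Over all kept cells *S100a16* had 142 UMIs, *S100a3* 94, of which 78 were in MC38-like cells, and *S100a5*, *S100a14*, *S100b*, *S100a2* and *S100a7a* had 2 to 14. None of these passed the filter in monocyte/macrophage-like cells. *S100pbp*, which encodes a nuclear S100P-binding protein, was the only listed gene beyond the members that did (1591 UMIs over all cells), with 0 of 3 contrasts called and none at an unadjusted p under 0.05.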

How the data were processed

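Tumors of 8 mice were profiled by Seq-Well 24 hours after dosing. Raw UMI counts of each gene in each barcode, from reads aligned to mm10, were deposited by the authors without normalization. The aligner and the strand setting are not given in the sources used here, and the submitters' processing notes name bcl2fastq. Cells were kept between 400 and 10000 genes, under 50000 UMIs and up to 15% of UMIs from mitochondria (9886 of 10791). Scrublet marked 67 doublets (0.678%), which were kept. Each cell took the class with the highest mean scaled marker level (at least 0.8, with at least 2 markers detected, or 3 for rare classes). A cluster-based class matched for 88.3% of the cells that both methods named. Counts were summed per tumor and class (at least 10 cells) and fitted over all genes and groups with edgeR 4.0.16 (R 4.3.3, filterByExpr, TMM, quasi-likelihood test, Benjamini-Hochberg, 0.05). Standard errors are those of the log2 fold change. In simulated counts for monocyte/macrophage-like cells, 37% of 2-fold and 82% of 4-fold changes were recovered. Members, lists and markers were chosen with earlier results of these data known. The 8 members and *Tlr4*, *Ager*, *Anxa1* and *Anxa2* are named in all cases, and of the other list genes those called in monocyte/macrophage-like cells, while list genes called in other classes were named after their values were seen. P-values measure the spread between these samples. Alternatives were RLE factors, DESeq2 1.42.0, no filter, 2 groups only, a replicate block, each tumor left out, Leiden classes, no doublets, thinning, stricter limits and, chosen after seeing the data, no shared barcodes and no cells with neutrophil genes. Python 3.11.15, scanpy 1.11.5, scipy 1.17.1 and matplotlib 3.10.9 were used. No label pairs tumors by replicate number, and the main fits used no pairing.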

Additional observations from a re-analysis of the deposited data

Results flagged for a closer look

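*S100a10* had opposite directions in different classes between medium R848-BPD and free R848. Its log2 fold change was 0.75 in neutrophil-like cells, where both prodrug tumors were above all free R848 tumors, and -0.42 in monocyte-like and -0.41 in MC38-like cells, where both were below. The difference between these classes was not tested.

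Against saline, *Anxa2* after medium R848-BPD was higher in every tumor of DC-like cells (0.70) and lower in every tumor of monocyte-like cells (-0.50). *Anxa1* was higher in NK-like cells (0.25) and lower in monocyte-like (-0.82) and T-like cells (-0.97). *Cd36* was higher in monocyte-like (1.08) and macrophage-like cells (1.69) and lower in DC-like cells (-2.56). These differences between classes were not tested.

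The cells without a class enter no comparison and also held calprotectin transcripts. *S100a8* stood there at 84.9 CPM pooled over the free R848 tumors, with 0, 7.14 and 198 in replicates 1 to 3, and at 25.2 after medium R848-BPD (31.2 and 21.7), against 18.4 after saline (0, 0 and 46.9). *S100a9* stood at 132 CPM after free R848 (5.50, 0 and 311), at 11.6 after medium R848-BPD (10.4 and 12.38) and at 33.1 after saline (3.84, 0 and 81.3). The pooled values of free R848 and saline thus rest mostly on replicate 3 of each, and both prodrug tumors lay above the other saline tumors and below saline replicate 3 for both genes.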

How the results depend on the processing

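*S100a4* and *S100a6* in monocyte/macrophage-like cells kept their direction between medium R848-BPD and free R848 under all alternatives run (log2 fold changes from -3.45 to -3.07 and from -1.80 to -1.39), as did *S100a8* (1.48 to 2.60, the highest with Leiden classes). *S100a9*, at -0.18, had no settled direction, with 0.82 after thinning to 1000 UMIs, 0.80 without cells holding *Retnlg*, *Cxcr2* or *Hdc*, and -1.04 to 0.62 with 1 tumor left out. *S100a8* against saline went from 3.50 to 4.79 without saline replicate 1. No label pairs tumors by replicate number, and correlations of deviations between tumors of the same number ran from -0.448 to 0.357. With so few tumors in a group, these cannot show that no batch was shared. With the replicate number as a block, the values were 2.37 (*S100a8*), 0.54 (*S100a9*), -3.07 (*S100a4*) and -1.39 (*S100a6*), and genes called in monocyte/macrophage-like cells went from 153, 667 and 2 (medium R848-BPD against free R848, against saline, and free R848 against saline) to 21, 274 and 0. These counts were 353, 920 and 50 with DESeq2, 925, 1737 and 549 without a filter on low counts, 390, 128 and 0 with only the groups compared, 84, 301 and 2 after thinning, and 9 to 500, 89 to 1123 and 0 to 85 with 1 tumor left out, the highest without saline replicate 2. The 1 call among *S100a10*, *S100a11*, *S100a1* and *S100a13* became 2 with DESeq2, 6 without a filter, 0 with the block or after thinning and 0 to 3 with 1 tumor left out. The listed partners called between medium R848-BPD and free R848 went from 0 to 1 (DESeq2), 10 (no filter), 2 (only 2 groups) and 0 to 5 (1 tumor left out). Against saline they went from 2 to 7, 13 and 0 under the first 3, 1 with the block, 4 with Leiden classes and 0 to 9, and between free R848 and saline from 0 to 8 without a filter and 0 to 2, the upper ends without saline replicate 2. Without a filter, 1 other family gene was called. Values that were not called crossed 0 in monocyte/macrophage-like cells: *S100a10* between the forms of R848 (0.0305 with the block, -0.67 to 0.0257 with 1 tumor left out), *S100a11* between free R848 and saline (-0.60 to 0.15), *Tlr4* (-0.18 to 0.41 between the forms, -0.01999 to 0.57 against saline), *Anxa2* against saline (0.13 with the block, -0.63 to 0.15) and between free R848 and saline (-0.0150 with stricter limits, -0.35 to 0.42), and *Anxa1* between free R848 and saline (-0.50 to 0.26). Unthinned shares of monocyte/macrophage-like cells with *S100a8* were 0.581%, 2.09% and 10.6% (saline, free R848, medium R848-BPD), and with *S100a4* 61.2%, 49.6% and 12.1%. At 2000 UMIs they were 1.22% and 5.44% for *S100a8* and 32.7% and 4.89% for *S100a4* after free R848 and medium R848-BPD. The causes of these shifts were not tested. With 2 prodrug tumors and few UMIs of *S100a8* and *S100a9* outside neutrophil-like cells, small differences of these genes were not detectable at this depth.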

Other observations

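The genes most like *S100a8* over 53 sums of a class in a tumor, by Pearson's r of log2 CPM, were *G0s2* (0.930), *Rdh12* (0.929), *Niacr1* (0.924), *Gm13822* (0.909) and *Hdc* (0.897), and the same 5 genes led for *S100a9*. *G0s2* and *Hdc* are among the markers that gate neutrophil-like cells. For *S100a4* the closest gene was *H2afy* (0.627) and for *S100a6* it was *Ier2* (0.773). Over the 8 sums of monocyte/macrophage-like cells *S100a4* was closest to *Ptpro* (0.991), and *S100a4* and *S100a6* had an r of 0.957. *S100a6* was closest to *Ier2* (0.983), *S100a8* to *Mus81* (0.992) and *S100a9* to *Ifitm3* (0.975). These values are descriptions over sums that share tumors and depth.

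Osteoclast-like cells, summed in 3 tumors, held 2129 and 2326 CPM of *S100a4* in free R848 replicates 1 and 2 and 2158 in saline replicate 3, with *S100a10* at 845 to 1072. *S100a8* was 0 to 3.36 CPM in them. No prodrug tumor had enough of these cells for a sum. In fibroblast-like cells *S100a4* was 5.58 and 49.2 CPM in the prodrug tumors and 379 in saline replicate 2, whereas *S100a6* was 440, 506 and 616 CPM in the same tumors.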
